A study of Mus musculus with 6 samples.

Results

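Fibroblast growth factor (FGF) signalling was described through 10 genes in the inner enamel epithelium (IEE) of the mouse mandibular first molar. They were 4 ligands (*Fgf3*, *Fgf7*, *Fgf9* and *Fgf10*), 3 receptors (*Fgfr1*, *Fgfr2* and *Fgfr3*) and 3 Sprouty inhibitors (*Spry1*, *Spry2* and *Spry4*). The members were taken by gene symbol from a table of 18152 genes, and all 10 were present and passed the filter on low counts. *Fgf7* passed it only through the *Kdf1* knockout libraries, where it was high.

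The study asked what the epithelial deletion of *Kdf1*, a gene that restrains keratinocyte proliferation, does to molar cusp formation. RNA was sequenced from IEE areas cut by laser capture microdissection from frozen head sections of E18.5 embryos. The controls were *Kdf1* fl/fl embryos, which carry loxP-flanked *Kdf1* alleles without Cre and are called WT in the sample labels. The conditional knockouts (cKO) were *K14-Cre;Kdf1* fl/fl embryos, with 3 libraries per genotype. Both groups were on a C57BL/6J background, and no treatment is given for either. The keratin 14 promoter drives Cre in all keratin 14-expressing epithelium, so the deletion was not limited to the tooth. The sources used here did not say whether a library came from 1 embryo or a pool, or whether the embryos were littermates, and p-values measure the spread between these libraries.

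FGF ligands bind receptor tyrosine kinases together with heparan sulphate and activate the RAS-MAPK and PI3K-AKT cascades. In the tooth germ, *Fgf3* and *Fgf10* are known as mesenchymal ligands and *Fgf9* as an epithelial ligand, and this exchange supports epithelial growth and folding. Sprouty genes are induced by FGF signalling and restrain it from inside the cell.

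*Kdf1* itself was at 53.2, 47.1 and 48.9 TPM in the *Kdf1* fl/fl libraries and at 0, 0.08 and 0 TPM in the cKO libraries. TPM scales a level by transcript length and library total, so it can be compared between genes. The libraries held 14713918 to 16675133 estimated counts. The epithelial marker *Krt14* was at 1628 to 2944 TPM in the controls and 582 to 1205 TPM in the cKO libraries. *Krt5*, also epithelial, was at 3328 to 4777 and 2129 to 2947 TPM. Both were high in all 6 libraries and lower in the cKO libraries without overlap. The mesenchymal markers *Vim* (439 to 1225 TPM) and *Col1a1* (628 to 4161 TPM) were also high in all 6 libraries, and the genotypes overlapped. The captured areas therefore gave RNA of both kinds of marker. Of 12 dental epithelium markers, 11 were lower in the cKO libraries in the edgeR fit. Of the 12, 6 did not overlap in that direction (16.2% of all genes tested did so). The summed level of the 12 markers was 16466 to 47239 TPM in the controls and 5818 to 9404 TPM in the cKO libraries. The enamel matrix gene *Amelx*, named after its values were seen, carried much of this difference, and without it the sums were 10203 to 15029 TPM and 5645 to 8705 TPM. Of 16 dental mesenchyme markers, 12 had a higher mean and 8 did not overlap in that direction (14.5% of all genes tested did so). Their sum ranged from 2080 to 9863 TPM in the controls and from 5245 to 6590 TPM in the cKO libraries. A large part of it came from *Col1a1* (means 2384 and 1765 TPM) and *Col1a2* (1243 and 900 TPM), the latter named after its values were seen. Both had a lower mean in the cKO libraries, so the sum does not show the direction of most of the 16. All 9 endothelial markers and all 9 immune cell markers had a higher mean in the cKO libraries. Across all genes tested, 49.5% had a log2 fold change above 0. Of these, 4 of the 9 endothelial and 3 of the 9 immune cell markers did not overlap in that direction. Both are larger shares than the same 14.5% of all genes tested. The summed levels of the mesenchymal, endothelial and immune lists, and of the bone and cartilage, skeletal muscle, neural and erythroid lists, overlapped between the groups. The part of the markers that differed between the genotypes in the FGF results was not tested.

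A gene was called when its adjusted p was at most 0.05 and its absolute log2 fold change was at least 1, which is the criterion of the study, here with edgeR's quasi-likelihood test. None of the 10 members was called, against 0.432% of the 14131 genes tested. Of the marker lists, 1 dental epithelium marker (*Cdh1*, lower) and 1 dental mesenchyme marker (*Twist1*, higher) were called. Both were named after their values were seen. At an unadjusted p of at most 0.05, 4 members were higher in the cKO libraries (*Fgf7*, *Fgf9*, *Fgfr2* and *Spry2*) and none was lower. Across all genes tested, 13.0% were higher and 11.6% were lower at that level. With the replicate number as a block, edgeR called *Fgf7* alone, against 4.16% of genes called higher. DESeq2 called *Fgf7* and *Fgf9*, against 5.05% called higher, and on adjusted p alone it also passed *Spry2*, against 7.39%. The limma alternatives called no member, but they called few genes at all. Limma-voom called 0.0425% of all genes tested, and limma on log2 TPM plus 1 or 0.1 called 0.219% and 0.396%.

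The fitted log2 fold change was above 0 for 9 of 10 members, against 49.5% of all genes tested, and the exception was *Fgfr3*. In CPM, counts scaled to library size, 7 of the 10 were higher in all 3 pairs of libraries with the same replicate number, against 25.7%. *Fgfr1* and *Spry4* were higher in 2 pairs, and *Fgfr3* in 1 pair in CPM and in 2 pairs in TPM. Also in CPM, every cKO library lay above every control for 3 members (*Fgf7*, *Fgf9* and *Spry2*), against 14.5% of genes. No member lay below in that way, against 16.2%. The median log2 fold change was 0.53 over the members and -0.00 over all genes tested. By role, the median was 1.16 for the ligands, 0.42 for the Sprouty genes and 0.15 for the receptors.

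**Figure D1:**
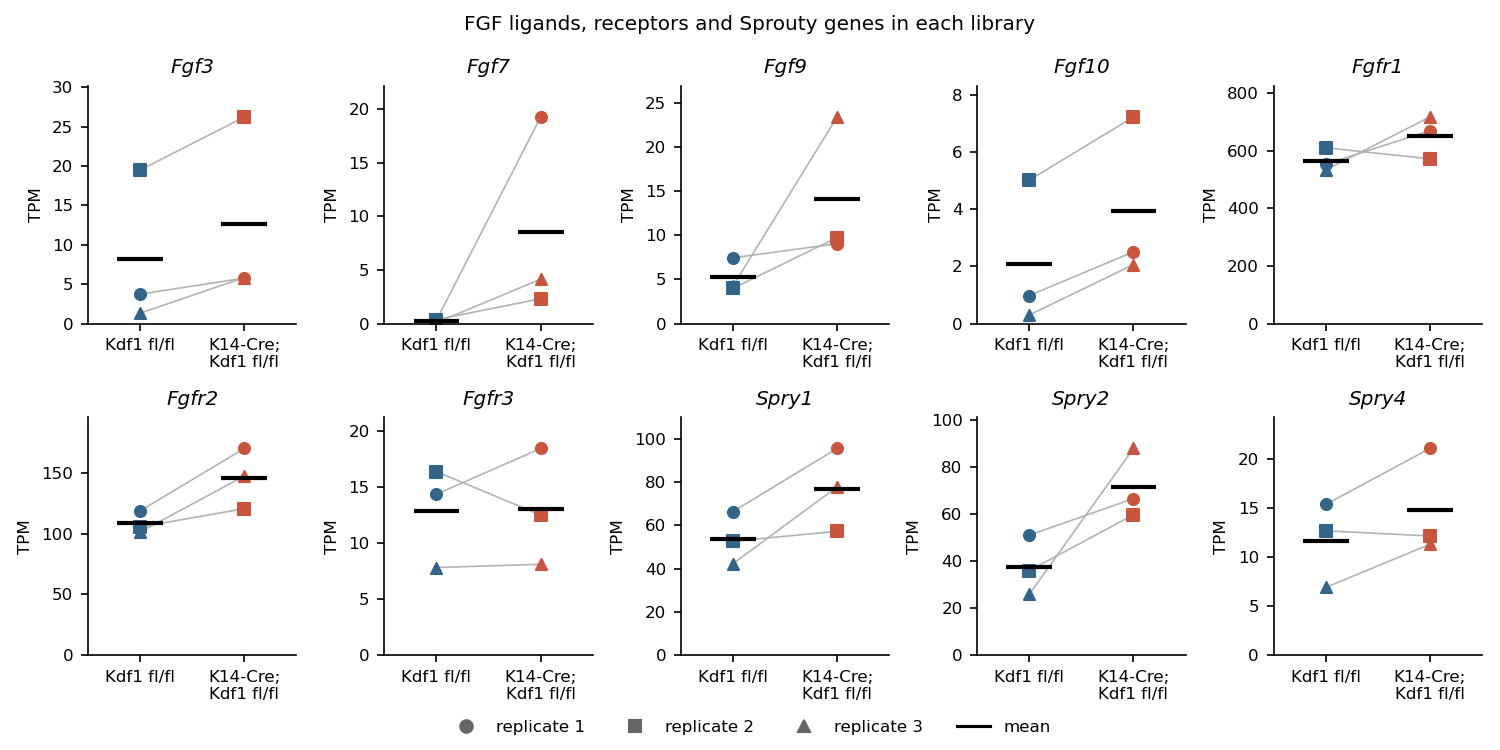
TPM of each of the 10 members in each library of the control and cKO groups. Points are libraries, grey lines join libraries with the same replicate number and bars are group means. *Fgf7* reached at most 0.37 TPM in a control and at least 2.31 TPM in a cKO library.

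The sequences upstream of *Fgf7*, *Fgf9* and *Spry2* are shown because these were the members whose groups did not overlap. They are the 250 bases before the annotated start in RefSeq (GRCm38.p6), written 5′ to 3′ on the strand of the gene, with each match to the E-box letters CANNTG in capitals. *Fgf7* is at chr2:126034408-126034657 (plus strand), *Fgf9* at chr14:58072436-58072685 (plus strand) and *Spry2* at chr14:105896820-105897069 (minus strand).
Fgf7: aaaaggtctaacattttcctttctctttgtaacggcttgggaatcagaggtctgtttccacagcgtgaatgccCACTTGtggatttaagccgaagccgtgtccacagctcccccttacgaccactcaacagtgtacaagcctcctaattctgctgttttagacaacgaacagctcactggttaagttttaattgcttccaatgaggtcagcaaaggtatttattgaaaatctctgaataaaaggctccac
Fgf9: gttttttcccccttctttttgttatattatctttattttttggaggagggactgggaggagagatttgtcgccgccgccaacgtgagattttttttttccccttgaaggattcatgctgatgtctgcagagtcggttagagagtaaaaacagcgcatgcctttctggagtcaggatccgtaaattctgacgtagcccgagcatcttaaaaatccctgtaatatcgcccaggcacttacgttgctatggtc
Spry2: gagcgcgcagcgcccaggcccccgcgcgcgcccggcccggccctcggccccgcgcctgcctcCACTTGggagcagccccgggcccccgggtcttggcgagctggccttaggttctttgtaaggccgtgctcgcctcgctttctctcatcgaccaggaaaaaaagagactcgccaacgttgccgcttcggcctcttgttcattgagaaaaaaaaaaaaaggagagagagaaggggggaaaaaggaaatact
The window of *Fgf7* held 1 match, starting at -177 from the start, and that of *Spry2* held 1 match at -188. Both matches read CACTTG, and the window of *Fgf9* held none. On either strand, 66.2% of 32851 upstream windows of the same length held an E-box. The ETS letters CCGGAA, the core of sites for ETS factors that respond to FGF, were in 12.03% of windows and in no window of the 8 members found in the table. These matches are descriptions of the letters and not measured sites.

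*Fgf7*, also called keratinocyte growth factor, is made by mesenchymal cells and acts on the epithelial splice form of *Fgfr2*. It was at 0.31, 0.37 and 0.08 TPM in the *Kdf1* fl/fl libraries and at 19.27, 2.31 and 4.14 TPM in the cKO libraries. The controls were all near the lower end of detection, the groups did not overlap, and cKO library 1 stood far above the others. The estimated counts behind these values were 7, 8 and 2 in the controls and 382, 50 and 90 in the cKO libraries. Only the cKO counts carried *Fgf7* past the filter on low counts. Its place among the genes tested therefore depended on its being high there. Its calls and its lack of overlap, set beside shares of all genes tested, carry that limit. The summed counts, 17 against 522, gave a CPM ratio of 31.6 with a 95% interval of 19.6 to 54.7 that covers counting error only. On the log2 scale the fitted difference was 4.95 (SE 0.94), with an adjusted p of 0.0637 in edgeR's quasi-likelihood test. With the replicate block it was 4.63 (SE 0.63) with an adjusted p of 0.0141 in edgeR, and DESeq2 gave an adjusted p of 2.91e-07. Without cKO library 1, the log2 fold change was 3.68 with an adjusted p of 0.104 in edgeR.

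Of the 16 dental mesenchyme markers, 7 were highest among the cKO libraries in library 1, 6 in library 2 and 3 in library 3. The summed endothelial markers were 729 TPM in cKO library 1 and 243 to 394 TPM in the other cKO libraries. The summed immune cell markers were 459 TPM in cKO library 1 and 132 to 206 TPM in the other cKO libraries. Among the cKO libraries, the erythroid (7172 TPM), skeletal muscle (10.93 TPM) and dental mesenchyme (6590 TPM) sums were also highest in library 1. The dental epithelium (9404 TPM), neural (216 TPM) and bone and cartilage (801 TPM) sums were highest in library 3. In bulk RNA, a different number of cells of a type and a different amount of RNA per cell cannot be told apart.

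*Fgf9*, the epithelial ligand, was at 7.45, 3.99 and 4.23 TPM in the *Kdf1* fl/fl libraries and at 9.05, 9.74 and 23.42 TPM in the cKO libraries. The groups did not overlap, and cKO library 3 was the highest. The group means were 5.22 ± 1.93 and 14.1 ± 8.10 TPM (SD, n = 3 each). Its log2 fold change was 1.40 (SE 0.46), with an adjusted p of 0.135 in edgeR and 0.0203 in DESeq2. Without cKO library 3 it was 0.77 (SE 0.30), with an adjusted p of 0.150 in edgeR.

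*Fgf3* was at 3.73, 19.47 and 1.31 TPM in the *Kdf1* fl/fl libraries and at 5.76, 26.22 and 5.83 TPM in the cKO libraries. *Fgf10*, which like *Fgf7* acts on the epithelial form of *Fgfr2*, was at 0.98, 5.02 and 0.30 TPM in the controls and at 2.51, 7.23 and 2.06 TPM in the cKO libraries. Both genes were highest in library 2 of each genotype, and the genotypes overlapped for both. Control library 2 also held the highest level among the controls of 15 of the 16 dental mesenchyme markers, and cKO library 2 the highest among the cKO libraries of 6 of 16. *Fgf3* exceeded *Fgf10* in every library, at 3.81, 3.88 and 4.37 times in the controls and 2.29, 3.63 and 2.83 times in the cKO libraries.

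*Fgf3* had a fitted difference of 0.64 on the log2 scale (SE 0.98, adjusted p = 0.723 in edgeR), and leaving out 1 library at a time gave values from -0.47 (without cKO library 2) to 2.24 (without control library 2). For *Fgf10* the fitted difference was 0.91 (SE 0.92, adjusted p = 0.575 in edgeR), and it ran from 0.12 (without cKO library 2) to 2.53 (without control library 2). The exons of *Fgf10* (123 bases), *Fgfr1* (164), *Fgfr3* (998) and *Spry1* (710) overlap genes on the opposite strand in the GENCODE M21 annotation, and the counting was not stated to use strand, so reads could be shared. Summed over the 4 ligands, the level was 5.92 to 28.85 TPM in the controls and 35.45 to 45.50 TPM in the cKO libraries. These sums did not overlap, although a different ligand made the largest part in different libraries. In cKO library 1, *Fgf7* alone gave 19.27 of 36.59 TPM. Without *Fgf7* that library would lie below control library 2, so the separation depended on this gene. The summed other FGF ligands of the pathway list lay the other way without overlap. They were at 48.49 to 57.35 TPM in the controls and 44.85 to 47.82 TPM in the cKO libraries. *Fgf1*, the most abundant of them, was at 26.84, 27.20 and 27.85 TPM in the controls. In the cKO libraries it was at 17.22, 18.77 and 16.92 TPM. Without *Fgf1* the sums would overlap, so this separation also depended on 1 gene.

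**Figure D2:**
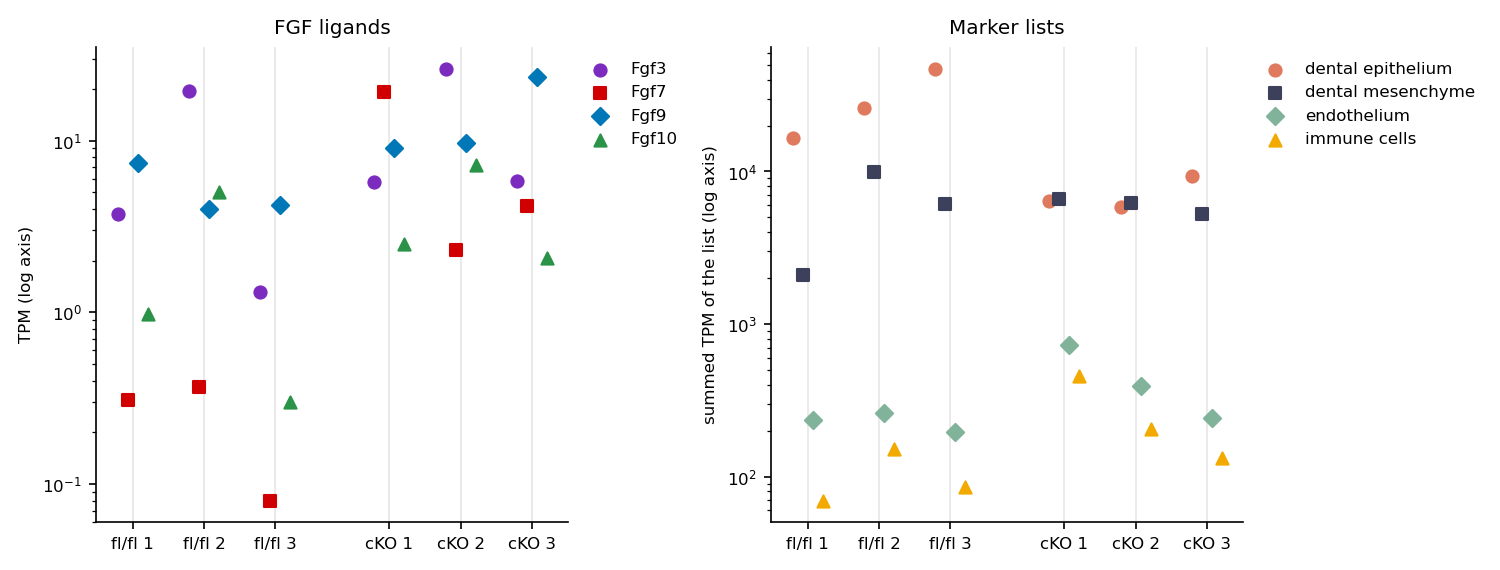
Left, TPM (log axis) of the 4 ligands in each library. Right, summed TPM (log axis) of 4 marker lists in the same libraries, with fl/fl for *Kdf1* fl/fl and cKO for *K14-Cre;Kdf1* fl/fl. The *Fgf7* point of cKO 1 (19.27 TPM) stands beside the highest immune (459 TPM) and endothelial (729 TPM) sums. The erythroid (7172 TPM) and skeletal muscle (10.93 TPM) sums, not shown, were also highest in cKO 1. The dental mesenchyme sum was highest in fl/fl 2 (9863 TPM), and among the cKO libraries in cKO 1 (6590 TPM).

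*Fgfr1* and *Fgfr2* were the most abundant members. *Fgfr1*, a receptor of many FGF ligands, was at 553, 610 and 533 TPM in the *Kdf1* fl/fl libraries and at 669, 572 and 717 TPM in the cKO libraries. The ranges overlapped, since cKO library 2 lay below control library 2. Fitted on the log2 scale, the difference was 0.15 (SE 0.15, adjusted p = 0.576 in edgeR).

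*Fgfr2*, the receptor of the *Fgf7* and *Fgf10* ligands in its epithelial form, was at 119, 106 and 101 TPM in the controls and at 170, 121 and 148 TPM in the cKO libraries. The TPM values did not overlap, but by a narrow margin, and in CPM they did (271 to 322 against 319 to 416). Its log2 fold change was 0.36 (SE 0.15), with an unadjusted p of 0.0416 and an adjusted p of 0.185 in edgeR. The gene-level values do not separate the epithelial and mesenchymal splice forms of *Fgfr2*. In the same annotation, 314 bases of *Fgfr2* exons overlap those of *Ctbp2* on the same strand, so its reads are in part uncertain.

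*Fgfr3* was at 14.39, 16.41 and 7.83 TPM in the *Kdf1* fl/fl libraries and at 18.48, 12.52 and 8.12 TPM in the cKO libraries. The groups overlapped over nearly their whole range, with library 3 the lowest in each. The difference in log2 was -0.05 (SE 0.32, adjusted p = 0.942 in edgeR), and its sign differed between settings.

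Within the summed receptor level, *Fgfr1* made up 82.3% ± 1.5 in the controls and 80.3% ± 2.15 in the cKO libraries, and *Fgfr2* made up 15.8% ± 1.45 and 18.0% ± 1.64 (SD, n = 3 each). *Fgfr1* exceeded *Fgfr2* 4.65, 5.78 and 5.25 times in the control libraries and 3.93, 4.73 and 4.85 times in the cKO libraries. *Fgfr3* made up 1.85% ± 0.553 and 1.62% ± 0.625. The order of the receptors was the same in all 6 libraries, and these differences in share were not tested.

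**Figure D3:**
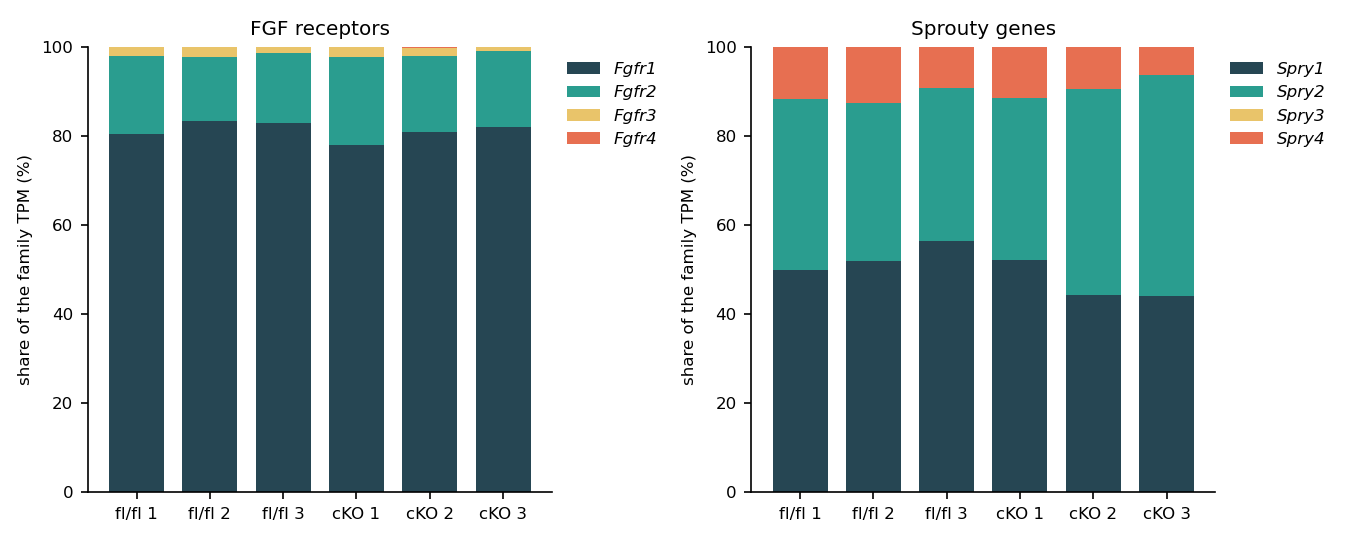
Share of the summed TPM of the FGF receptors (left) and of the Sprouty genes (right) in each library, in percent. *Fgfr4* and *Spry3*, which are too low to see, are counted in the sums. *Fgfr1* holds about 80.3% to 82.3% of the receptor level in the group means, and *Spry2* holds 36.1% in the controls and 44.0% in the cKO libraries.

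*Spry2* was at 50.95, 35.89 and 25.79 TPM in the *Kdf1* fl/fl libraries and at 66.44, 59.59 and 87.76 TPM in the cKO libraries. All cKO libraries lay above all controls, and the highest value was in cKO library 3, as for *Fgf9*. The group means were 37.5 ± 12.7 and 71.3 ± 14.7 TPM (SD, n = 3 each). Its log2 fold change was 0.86 (SE 0.27), below the fold change limit, with an adjusted p of 0.120 in edgeR and 0.0228 in DESeq2.

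*Spry1* was at 66.37, 52.65 and 42.26 TPM in the controls and at 95.59, 57.25 and 77.80 TPM in the cKO libraries. The genotypes overlapped through cKO library 2. The difference in log2 was 0.42 (SE 0.20, adjusted p = 0.252 in edgeR). *Spry4* was at 15.38, 12.69 and 6.90 TPM in the controls and at 21.10, 12.16 and 11.31 TPM in the cKO libraries, and the groups overlapped (0.29 on the log2 scale, SE 0.30, adjusted p = 0.597 in edgeR).

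*Spry2* made up 38.4%, 35.5% and 34.4% of the Sprouty level in the controls and 36.3%, 46.2% and 49.6% in the cKO libraries. *Spry1* was the more abundant of the pair in all 3 controls and in cKO library 1, and *Spry2* was the more abundant in cKO libraries 2 and 3. The ratio of *Spry2* to *Spry1* was 0.768, 0.682 and 0.610 in the controls and 0.695, 1.04 and 1.13 in the cKO libraries, so the groups overlapped.

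In mean TPM of the controls, the order was *Fgfr1* (566 ± 40.1), *Fgfr2* (109 ± 9.14), *Spry1* (53.8 ± 12.1), *Spry2* (37.5 ± 12.7), *Fgfr3* (12.9 ± 4.49), *Spry4* (11.7 ± 4.33), *Fgf3* (8.17 ± 9.86), *Fgf9* (5.22 ± 1.93), *Fgf10* (2.10 ± 2.55) and *Fgf7* (0.253 ± 0.153). The first 3 stood apart from each other in every library, whereas *Spry1* and *Spry2*, and each neighbouring pair from *Fgfr3* to *Fgf7*, overlapped in range. In the cKO libraries, *Fgf9* (14.1 ± 8.10 TPM), *Spry4* (14.9 ± 5.42 TPM), *Fgfr3* (13.0 ± 5.20 TPM), *Fgf3* (12.6 ± 11.8 TPM) and *Fgf7* (8.57 ± 9.31 TPM) were not separated beyond their spread (SD, n = 3).

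**Figure D4:**
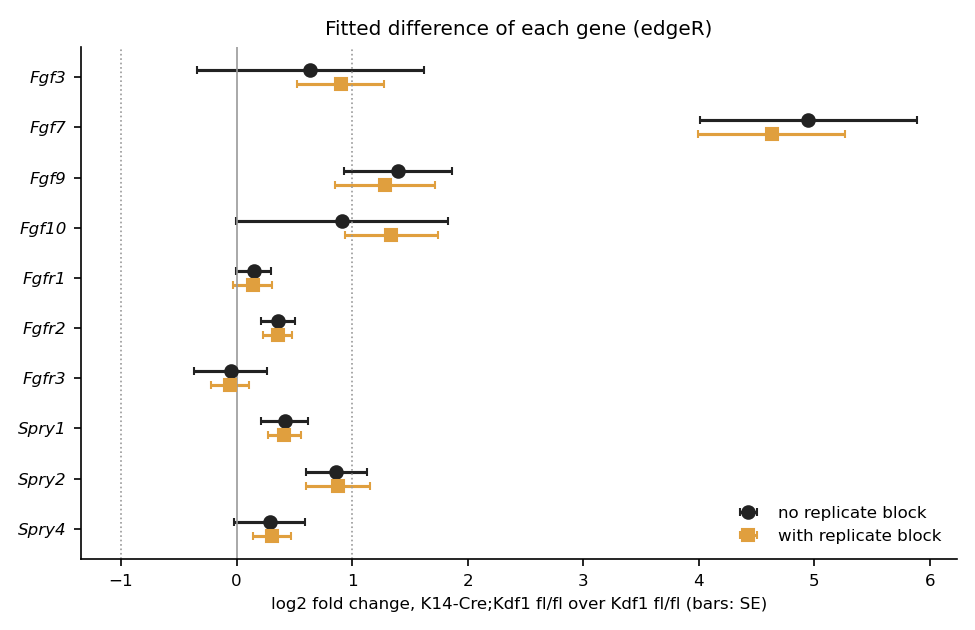
Log2 fold change of each member, *K14-Cre;Kdf1* fl/fl over *Kdf1* fl/fl, in edgeR without (circles) and with (squares) the replicate block. Bars are SE, and dotted lines mark the fold change limit of 1 in either direction. Without the block, *Fgf7* lies at 4.95, *Fgf9* at 1.40 and *Fgfr3* at -0.05.

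The rest of the pathway was read from a list of 83 genes by role, of which 82 were in the table and 69 were tested. None was called in edgeR. At an unadjusted p of at most 0.05, 15 were higher and 7 were lower in the cKO libraries, against 13.0% and 11.6% of all genes tested. Every cKO library lay above every control for 14 and below for 9, against 14.5% and 16.2%. The median log2 fold change was 0.14, against -0.00 over all genes tested. With the replicate block, edgeR called *Gpc6*, *Sulf2* and *Flrt3*, 3 of 69 against 4.16% of all genes called higher, and 7 genes passed on adjusted p alone, 6 of them higher, against 9.87% of all genes tested in either direction. DESeq2 called *Gpc6* and *Flrt3*, 2 of 69 against 5.05%. The limma alternatives called none, against 0.0425% to 0.396% of all genes tested. Each of these calls was for a gene that was higher in the cKO libraries.

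Among the other ligands, *Fgf1*, which binds all FGF receptors, was at 27.3 ± 0.512 TPM in the controls and 17.6 ± 0.993 TPM in the cKO libraries. It was lower in every cKO library, with a fitted difference of -0.69 on the log2 scale (SE 0.12), and its adjusted p was 0.0582 in edgeR, 0.0246 once the block was added, and 0.000292 in DESeq2. *Fgf2*, a ligand without a secretion signal, averaged 1.52 ± 0.674 and 2.58 ± 1.13 TPM. It did not overlap in CPM but did in TPM (2.27 in control library 2 against 2.15 in cKO library 2). Its adjusted p was 0.178 in edgeR, 0.117 once the block was added, and 0.122 in DESeq2. *Fgf14*, an intracellular family member, was at most 0.34 TPM in a control and between 0.41 and 1.88 TPM in the cKO libraries. Ligands known from the enamel knots and the early dental epithelium were scarce, with *Fgf4* at 0.59, 0 and 0 TPM in the controls and 0.04, 0.48 and 1.52 TPM in the cKO libraries, *Fgf8* at 0 TPM in all controls and 0.15 to 0.33 TPM in the cKO libraries, and *Fgf20* at most 0.09 TPM. *Fgf4*, *Fgf8* and *Fgf20* were named after their values were seen.

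Of the 19 extracellular and heparan sulphate genes tested, 6 were higher and none was lower at an unadjusted p of at most 0.05, against 13.0% and 11.6% of all genes tested. The heparan sulphate proteoglycan *Sdc4* averaged 67.5 ± 10.4 TPM in the controls and 122 ± 20.5 TPM in the cKO libraries (log2 fold change 0.79, SE 0.14), with an adjusted p of 0.0582 in edgeR, 0.0187 once the block was added, and 9.2e-05 in DESeq2. *Gpc6*, a glypican, averaged 9.62 ± 4.94 and 27.3 ± 11.9 TPM (log2 fold change 1.46, SE 0.42), and its adjusted p was 0.107 in edgeR, 0.00422 once the block was added, and 0.00561 in DESeq2. *Sdc2* averaged 45.5 ± 5.77 and 71.7 ± 21.8 TPM. It did not overlap in CPM but did in TPM (51.91 in control library 2 against 50.98 in cKO library 3). Its adjusted p was 0.119 in edgeR, 0.0712 once the block was added, and 0.0455 in DESeq2. *Sulf2*, a heparan sulphate sulphatase named after its values were seen, was at 20.22, 24.51 and 9.44 TPM in the controls and at 102.49, 100.41 and 18.03 TPM in the cKO libraries, so the groups overlapped through cKO library 3.

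Of 23 intracellular transducers, 4 were higher and 6 were lower at that level, against 13.0% and 11.6%, with a median log2 fold change of -0.03. *Cblb*, a ubiquitin ligase of receptor tyrosine kinases, was higher at 0.82 (SE 0.16, adjusted p = 0.0637 in edgeR, 0.0273 once the block was added, and 0.000781 in DESeq2). Its relative *Cbl* lay in the other direction, at -0.43 (SE 0.11, adjusted p = 0.0818 in edgeR, 0.0635 once the block was added, and 0.0156 in DESeq2). *Nf1*, which switches off RAS, was at 0.44 (SE 0.10, adjusted p = 0.0757 in edgeR, 0.0577 once the block was added, and 0.00479 in DESeq2).

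The list of other inhibitors also holds *Flrt1*, *Flrt2* and *Flrt3*, transmembrane proteins known to bind FGF receptors and not established as inhibitors. All 10 genes of the list that were tested had a fitted log2 fold change above 0, from 0.21 to 1.06 with a median of 0.50. At an unadjusted p of at most 0.05, 3 passed (*Spred1*, *Flrt2* and *Flrt3*), against 13.0% of all genes higher at that level. Without the *Flrt* genes, 7 of 7 were above 0, from 0.21 to 0.76 with a median of 0.48, and *Spred1* alone passed. *Flrt3* was at 1.06 (SE 0.31), and its adjusted p was 0.107 in edgeR, 0.0241 once the block was added, and 0.0173 in DESeq2. It is known to promote FGF receptor signalling. *Il17rd*, a transmembrane inhibitor of FGF receptors, was at 0.76 (SE 0.33, adjusted p = 0.210 in edgeR, 0.0422 once the block was added, and 0.112 in DESeq2). *Spred1*, which restrains RAS, was at 0.41 (SE 0.11, adjusted p = 0.0942 in edgeR, 0.0773 once the block was added, and 0.0190 in DESeq2). *Dusp6*, an ERK phosphatase often read as a marker of FGF response, was named after its values were seen. It was at 65.23, 59.33 and 45.62 TPM in the controls and 82.03, 59.72 and 71.91 TPM in the cKO libraries.

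The 8 transcription factors of the FGF response had log2 fold changes from -0.20 to 0.81 and a median of 0.13, and 1 (*Ets1*, named after its values were seen) was higher at an unadjusted p of at most 0.05, against 13.0% of all genes tested. *Etv4* (102.6 ± 33.8 and 116.5 ± 45.5 TPM) and *Etv5* (31.1 ± 8.45 and 30.1 ± 9.24 TPM), ETS factors induced by FGF signalling and also named after their values were seen, overlapped between the groups.

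**Figure D5:**
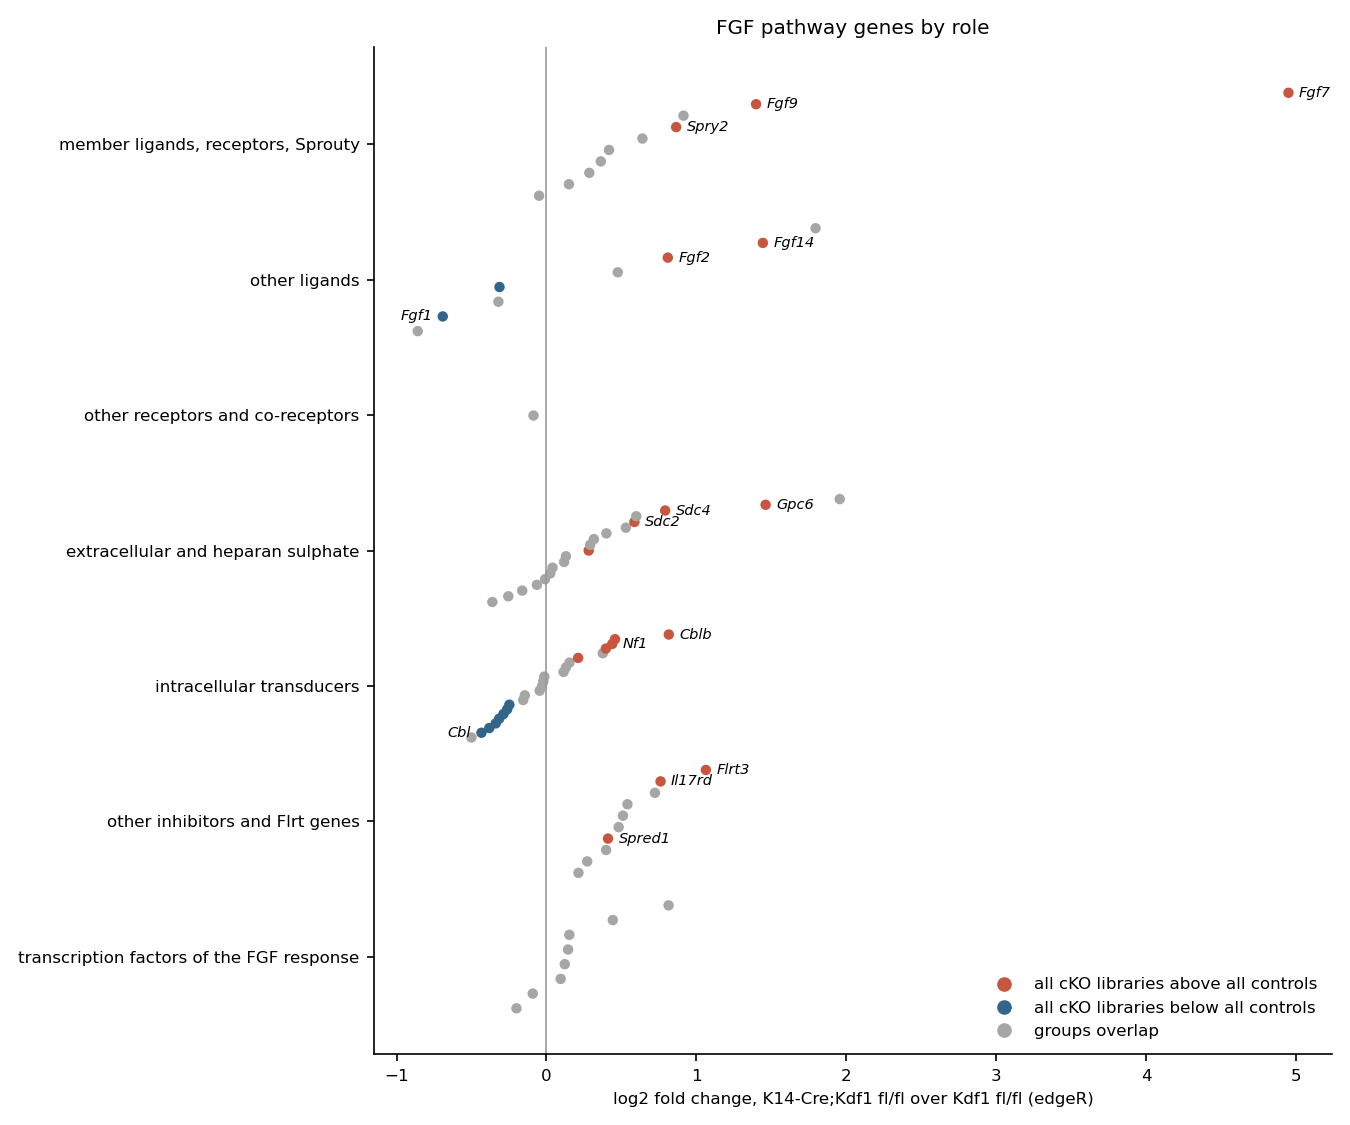
Log2 fold change (edgeR) of the members and of the 69 other FGF pathway genes tested, by role. Red points are genes with all cKO libraries above all controls in CPM, blue points those with all below, and grey points those that overlap, with names for members and rule-chosen genes that do not overlap.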

How the data were processed

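Libraries were made from total RNA with a TruSeq kit. The authors deposited 1 table of genes with estimated counts, TPM and FPKM for each library and group means, and the means were not used. Per the submitters' processing notes, BWA 0.7.12, Picard 2.6.0 and StringTie were used, with no role stated. The counting program, genome build and use of strand are not given in the sources used here. No column of other samples was in the table (0). Reads of overlapping antisense genes could not be told apart.

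The deposited estimated counts, 10.9% to 11.5% of them not whole, were rounded and filtered with filterByExpr, which left 14131 genes. Libraries were scaled by TMM (factors 0.950 to 1.03) and tested with edgeR 4.0.16 (quasi-likelihood, robust) in R 4.3.3, with Benjamini-Hochberg adjustment over all genes. DESeq2 1.42.0 and limma 3.58.1 were alternatives, the last also on log2 of the deposited TPM plus 1 or 0.1. The deposited FPKM values were used only to recompute shares. A floor of 3 counts was 0.182 to 0.198 CPM. The deviations of same-numbered libraries from their group means had correlations of 0.135, 0.324 and 0.499, and the replicate number was tried as a block. The labels state no pairing, and libraries with different numbers were not correlated for comparison. Every adjusted p with the block therefore rests on an assumed pairing.

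The members and gene lists were chosen with earlier results of these data known. Besides the 10 members, the text names in each role up to 3 other pathway genes that did not overlap and had the smallest unadjusted p, plus *Kdf1* and 4 defining markers. Genes whose CPM follows a member most closely are given for members with a mean of at least 5 TPM. No protein sequence was used here.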

Additional observations from a re-analysis of the deposited data

How the results depend on the processing

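Under the criterion, 0 members were called in edgeR, 2 in DESeq2 and 1 (*Fgf7*) with the replicate block. These fits called 0.432%, 6.94% and 6.09% of all genes tested. Leaving out 1 library gave 0 to 1 (*Fgf7*, without cKO library 3). The fit without cKO library 3 called 3.23% of all genes tested, and the other fits with 1 library left out called 0.00694% to 0.111%. Among the other pathway genes, 0 were called, against 2 in DESeq2, 3 with the replicate block, and 0 to 2 with 1 library left out. The shares of all genes called in these fits are those just given. With an unadjusted p and the fold change limit, the counts were 2 members and 3 other genes. No share over all genes was computed for that rule, so these counts cannot be set against all genes tested. The replicate block changed no other member's call. The log2 fold change of *Fgf3* was -0.47 without cKO library 2, within a range of -0.47 to 2.24. That of *Fgfr3*, -0.05, ran from -0.31 to 0.19 with 1 library left out. It was 0.01 in limma with either pseudocount (0.0073 with 1 and 0.0076 with 0.1), 0.05 without control library 1, 0.11 without control library 2, 0.19 without cKO library 3, and 0.13 without both libraries numbered 2, an alternative chosen after seeing the data. The cause was not tested. All other members kept their direction under every alternative run. *Fgf7* was not tested when at least 10 counts were required in every library, since its controls had 2 to 8. Leaving out cKO library 1 moved *Fgf7* from 4.95 to 3.68. The fitted SE was 0.98 for *Fgf3* and 0.92 for *Fgf10*, whose libraries spread widely within each group.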

Other observations

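Over the 6 libraries, the genes whose log2 CPM was most like that of a member had Pearson's r from 0.968 to 0.996. This is a description with no test. For each member the 2 highest of all genes tested were taken over only 6 libraries of 2 genotypes. A high r therefore follows in part from the choice, and the genotype difference enters it. The closest genes were *Sall3* and *LOC108168680* for *Fgf3*, *Slc38a6* and *Pcmt1* for *Fgf9*, *Tmx1* and *Arid4b* for *Fgfr1*, and *Grina* and *Slc12a2* for *Fgfr2*. For *Fgfr3* they were *LOC115488029* and *Hdac6*, for *Spry1* *Kdm2b* and *Hs2st1*, for *Spry2* *Dab1* and *Oxa1l*, and for *Spry4* *Dvl2* and *Foxp1*. *Hs2st1*, the heparan sulphate 2-O-sulphotransferase, is itself in the pathway list and was at 36.27, 32.96 and 27.20 TPM in the *Kdf1* fl/fl libraries and at 49.20, 34.25 and 41.96 TPM in the cKO libraries.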
